A study of Mus musculus with 3 samples.

Results

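The Hox genes are the 39 mouse genes whose symbol is Hox, a cluster letter from a to d and a number. They were chosen by symbol alone and matched by Entrez ID to the gene tables of tail tendon derived stem cells, in which 16621 genes had a row in at least 1 table. All 39 were found in the RefSeq gene table, as 11 genes of the HoxA cluster on chromosome 6, 10 of HoxB on chromosome 11, 9 of HoxC on chromosome 15 and 9 of HoxD on chromosome 2. Tendon derived stem cells are clonogenic, matrix-producing progenitors grown out of tendon. Here they came from the tail tendon of C57BL/6 mice aged 10 weeks, were grown without treatment in serum and were harvested when confluent at passage 4. The genotypes were wild type (WT, 1 library) and CFTRΔF508 (DF508, 2 libraries), the common cystic fibrosis mutation of the Cftr anion channel, and the comparison asked how the mutant cells' transcripts differ. The labels name no other allele or agent. Whether the DF508 pair are separate mice or cultures is not labelled, and p-values then reflect only the spread of these libraries, which may be technical.

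Hox genes encode homeodomain transcription factors that give cells their address along the head-to-tail axis. Within a cluster the genes lie in the order in which they are used, so that low paralogue numbers mark anterior and high numbers posterior levels, and genes with the same number in different clusters are paralogues that arose by duplication of an ancestral cluster. Fibroblasts and other mesenchymal cells of adult animals keep much of the Hox pattern of the place they came from, also in culture.

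The libraries had 5241826 to 5298326 estimated counts each. The tendon markers with the highest levels were the thrombospondin Thbs4, the collagen Col1a1 and the collagen Col1a2, and tenomodulin (Tnmd), a defining tendon gene, stood at an FPKM (fragments scaled to transcript length and to library depth) of 70.2, 82.5 and 145 in WT and DF508 replicates 1 and 2. Scleraxis (Scx), the tendon-specifying factor, was low, with FPKM of 2.71, 1.88 and 2.22. Cftr had 15 counts in WT and 1 in each DF508 library, and did not pass the test (edgeR adjusted p = 0.185). The deletion is short and in frame, so the transcript level does not check the label. Myeloid markers differed between the libraries: the FPKM summed over 11 of them was 76.3 in WT, 114 in DF508 replicate 1 and 531 in DF508 replicate 2. All 10 tested were higher in DF508 in the fit, with a median log2 fold change of 2.11. None passed at the adjusted threshold, but 7 had an unadjusted p under 0.05 in edgeR, against 11.9% of all genes. Fcgr1 was at 0 in WT and in DF508 replicate 1. Among endothelial markers, Pecam1, Cdh5 and Emcn had no row in any table, nor had Krt5 and Krt14 of keratinocytes and Myod1 and Myog of muscle. Other members of these lists had rows. Tek of endothelium had FPKM of 3.1, 2.81 and 2.64 in WT and DF508 replicates 1 and 2. Krt10 and Trp63 of keratinocytes and Des and Acta1 of muscle were at 3.52 or less in each library. The FPKM summed over marker lists was 2.67 to 3.13 for endothelium, 0.64 to 2.04 for keratinocytes, 1.7 to 4.14 for muscle, 21.6 to 24.3 for Schwann cells and melanocytes and 32.1 to 39.1 for cartilage and bone. The part of myeloid cells in the Hox values was not tested. In bulk RNA, fewer cells of a type and less RNA per cell cannot be told apart.

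Tail tendon cells carried transcripts of HoxA, HoxB and HoxC genes of nearly every paralogue number, with the highest levels at the posterior end, and almost none of HoxD. Of the 39 genes, 33 had a row in at least 1 table, 29 in all 3, and 29 reached an FPKM of 1 in at least 1 library. These 29 were all of the 30 HoxA, HoxB and HoxC genes except Hoxb1. The Hox genes together held 0.0406%, 0.0399% and 0.0418% of the counts in WT and DF508 replicates 1 and 2, or 2151, 2093 and 2196 counts. Most stood below the middle of the transcriptome: 10 exceeded the median of all listed genes, a mean FPKM of 5.59. Only 6 had a mean FPKM of at least 10 over the 3 libraries, and all 6 belonged to paralogue groups 9 to 13. Groups 9 to 13, the relatives of fly Abdominal-B, held 75.6% of the summed Hox FPKM in WT and 73.9% in each DF508 library. Groups 4 to 8 held 18% to 19.3% and groups 1 to 3 held 6.4% to 7.03%. In HoxA, HoxB and HoxC the median of the mean FPKM rose from 1.12 over 6 genes of groups 1 to 3 to 2.38 over 13 genes of groups 4 to 8 and 10.4 over 11 genes of groups 9 to 13. The ranges of the bands overlapped, from 0.03 to 8.11, from 0.793 to 8.98 and from 1.99 to 33.2.

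**Figure D1:**
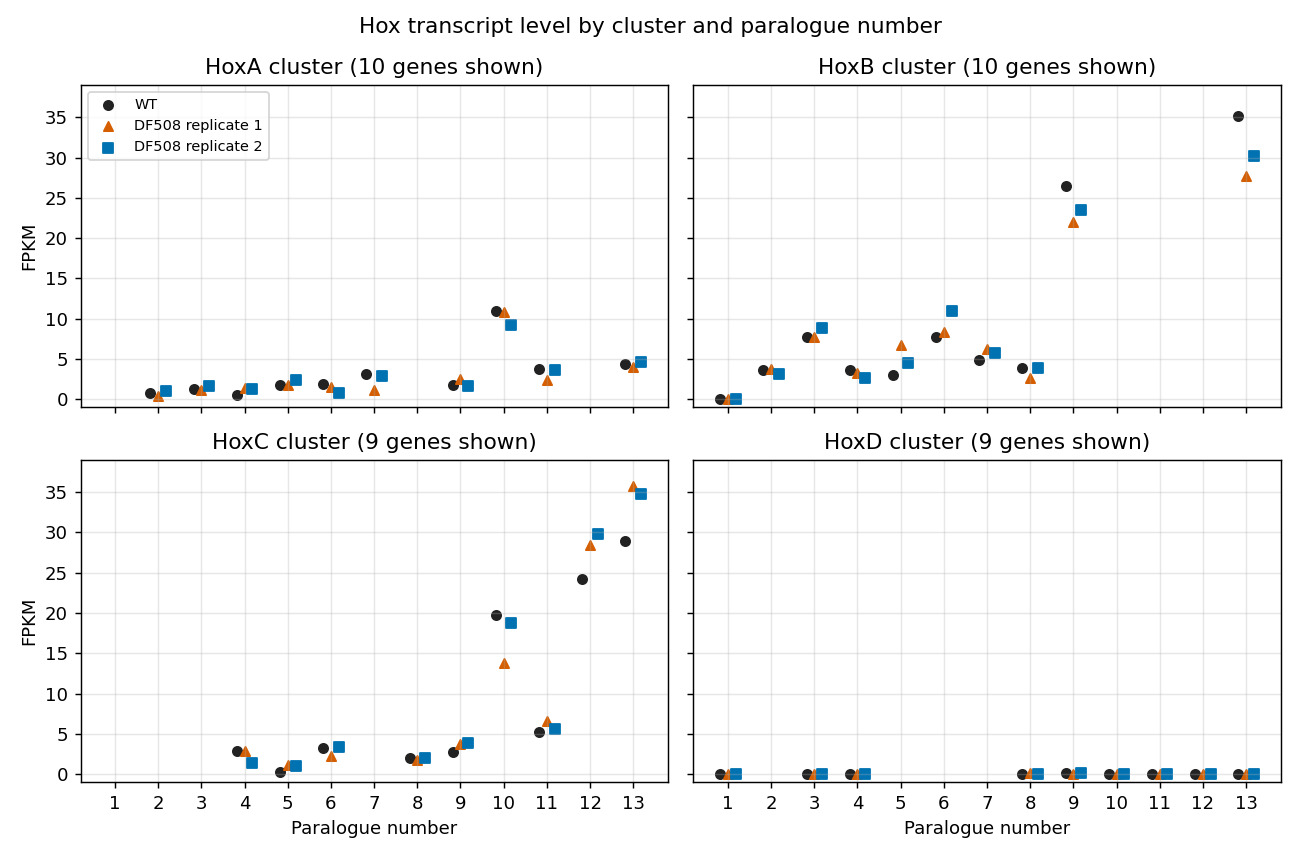
FPKM (vertical axis) of 38 Hox genes against paralogue number (horizontal axis) in 4 panels, 1 for each cluster, with 1 point for each library. The highest points are group 9, 10, 12 and 13 genes of HoxB and HoxC, at up to 35.8 FPKM, and every HoxD point lies at or under 0.18.

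Group 13 genes act at the most caudal end of the axis and alone held 31% to 31.6% of the summed Hox FPKM. Hoxc13, known for its role in hair and nail formation, had the highest mean, with FPKM of 28.9 in WT, 35.8 in DF508 replicate 1 and 34.8 in DF508 replicate 2. Hoxb13, whose loss in mice gives an overgrown tail, had 35.1, 27.7 and 30.2. Hoxa13, needed for digits and the urogenital tract, was far lower, with 4.35, 3.96 and 4.69. By FPKM the order of the leading pair was not stable: Hoxb13 was above Hoxc13 in WT and below it in both DF508 libraries. By count Hoxc13 was above Hoxb13 in each library, with 372, 456 and 444 against 241, 188 and 205. Their gene models have 2433 and 1313 bases. The 95% counting intervals of their FPKM overlapped in WT, 30.8 to 39.8 for Hoxb13 and 26 to 32 for Hoxc13. They overlapped in DF508 replicate 2 as well, 26.2 to 34.6 and 31.6 to 38.2. In DF508 replicate 1 they did not, 23.9 to 31.9 and 32.6 to 39.2. Hoxc13 stood at the 88th percentile of all listed genes and Hoxb13 at percentile 87.1, whereas Hoxa13 stood at percentile 45. Neither Hoxb13 nor Hoxc13 shared reads with another gene or overlaps another annotated gene.

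Hoxc12, the only group 12 gene with a row, had FPKM of 24.2 in WT, 28.4 in DF508 replicate 1 and 29.8 in DF508 replicate 2. Its place depended on length: it was the third gene by FPKM and the seventh by count, with 105, 122 and 128 counts on a gene model of 843 bases, the shortest among the Hox genes after that of Hoxa6. Hoxb9, a gene of the thoracic and more caudal trunk, had 26.5, 22 and 23.5. Its counts include reads shared with another gene or copy, and how many is not known, so they are uncertain. Hoxc10 and Hoxa10 belong to a group that patterns the lumbar and sacral region and the hindlimb. Hoxc10 had 19.7, 13.8 and 18.7. Hoxa10 had 11, 10.9 and 9.25. The ranges over libraries of Hoxc12 and Hoxb13 overlapped, as did those of Hoxc12 and Hoxb9, while Hoxc10 lay below Hoxb9 and above Hoxa10 in each library.

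The other posterior genes were at the level of the central ones. Group 11 acts in the limb, kidney and sacral region. Hoxc11 had FPKM of 5.29, 6.63 and 5.56 in WT and DF508 replicates 1 and 2, on a gene model of 915 bases. Hoxa11 had 3.8, 2.42 and 3.59, and its span overlaps that of its antisense partner Hoxa11os, which had 4.44, 3.65 and 4.27. Neither had estimates that mark shared reads. No source used here says whether counting used strand, so antisense reads may still be among the counts of Hoxa11. Of the remaining group 9 genes, which shape the rib-bearing trunk, Hoxc9 had 2.76, 3.8 and 3.91. Hoxa9, also a gene of blood progenitors, had 1.75, 2.53 and 1.68, from 30, 43 and 28 counts. Whether myeloid cells contributed to its level was not tested.

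Groups 4 to 8 pattern the cervical and thoracic trunk, and their HoxB members exceeded their HoxA and HoxC paralogues in level. Hoxb6 led them, with FPKM of 7.68, 8.34 and 10.9 in WT and DF508 replicates 1 and 2. Hoxb7 had 4.83, 6.26 and 5.79. Hoxb5 had 2.98, 6.72 and 4.51. These HoxB genes are neighbours, and Hoxb5 and Hoxb6 each overlap the annotated antisense gene Hoxb5os. Hoxb8 had 3.92, 2.6 and 3.89. Hoxb4, which shares reads, had 3.68, 3.32 and 2.63. In every group from 4 to 7 the HoxB gene was above its HoxA paralogue in each library. Hoxa7 had 3.11, 1.18 and 2.84. Hoxa5, a gene of the lung and the cervico-thoracic boundary, had 1.82, 1.84 and 2.35. The lowest of the HoxA genes here were close to the limit of detection. Hoxa6 had 1.96, 1.51 and 0.85, from 3 to 7 counts on a gene model of 699 bases, and shares reads. Hoxa4 had 0.5, 1.39 and 1.26. HoxC members of these groups were also low. Hoxc6, expressed in the thoracic trunk and forelimb region, had 3.23, 2.3 and 3.38. Hoxc4 had 2.87, 2.9 and 1.35. Hoxc8, which acts in thoracic patterning and shares reads, had 2.06, 1.72 and 2. Hoxc5 was the lowest of the cluster, with 0.21, 1.12 and 1.05, from 3 counts in WT and 16 and 15 in DF508.

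Anterior genes, which pattern the hindbrain and the neck, were not absent from these tail cells. Hoxb3 was the highest of groups 1 to 3, with FPKM of 7.75, 7.72 and 8.87 in WT and DF508 replicates 1 and 2, and ranked eighth among all Hox genes. Hoxb2, a hindbrain gene, had 3.62, 3.77 and 3.18. Both lie beside other transcripts: Hoxb3 shares reads and its span overlaps that of Hoxb4 and Hoxb3os, and Hoxb2 overlaps Hoxb3os, so part of their reads may belong to these. Hoxa3, a gene of thymus and parathyroid development that spans the genes Hoxa4 to Hoxa6 in the annotation and shares reads, had 1.34, 1.13 and 1.65. Hoxa2, the selector gene of the second branchial arch, had 0.75, 0.43 and 1.08. These HoxA genes rested on 4 to 22 counts a library. Hoxb1, which marks a single hindbrain segment, had 1 count in DF508 replicate 1 and none in the other libraries. In all, 20 of the 39 genes overlap another annotated gene and 7 share reads. Shared reads were not particular to Hox genes. Of all genes with a row, 79.8%, 79.4% and 79.7% had whole estimates in WT and DF508 replicates 1 and 2.

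The HoxD cluster was the exception. Its 9 genes together had 2.46 counts in WT, 1 in DF508 replicate 1 and 2 in DF508 replicate 2, against 308 to 326 counts for HoxA, 917 to 1011 for HoxB and 812 to 902 for HoxC. The exact 95% Poisson interval, which covers counting error only, was 0.242 to 7.22 counts in WT after rounding and 0.0253 to 5.57 in DF508 replicate 1. Hoxd9 had 1, 0 and 2 counts, Hoxd8 had 1 count in DF508 replicate 1, and Hoxd11 had 1.46 in WT, so no HoxD gene exceeded 2 counts in a library. Hoxd1, Hoxd3, Hoxd4, Hoxd10, Hoxd12 and Hoxd13 had no row in any table and were taken as 0. No source used here says whether the annotation the authors counted on held these 6 genes. If it did not, their 0 sets no limit, so no fold against them is given. For the 3 HoxD genes with a row, the upper 95% counting limit lay under the lower limit of their paralogues in the same library. In WT the FPKM limit was 0.501 for Hoxd9 against 1.18 for Hoxa9, and 0.305 for Hoxd11 against 2.78 for Hoxa11. In DF508 replicate 1 it was 0.78 for Hoxd8 against 1.05 for Hoxc8 and 1.82 for Hoxb8, and in DF508 replicate 2 it was 0.65 for Hoxd9 against 1.12 for Hoxa9.

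Listed genes on either side of the HoxD cluster had higher levels. Lnpk, on the side of Hoxd13, had FPKM of 4.65, 4.63 and 4.16 in WT and DF508 replicates 1 and 2, and Mtx2, next to Hoxd1, had 20.3, 14.8 and 18.9. This pair is named after its values were seen. Evx2, the homeobox gene between Lnpk and Hoxd13, had no row, so the edge of the low level on that side was not located. The non-coding genes Hoxd3os1 and Haglr inside the cluster had no row either. In the HoxC cluster the non-coding gene Hotair, studied in human fibroblasts for its relation to the HOXD cluster, had 2.47, 2.67 and 4.3 and was tested without passing (log2 fold change of DF508 against WT 0.45, edgeR adjusted p = 0.747), and was also picked after its values were seen.

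**Figure D2:**
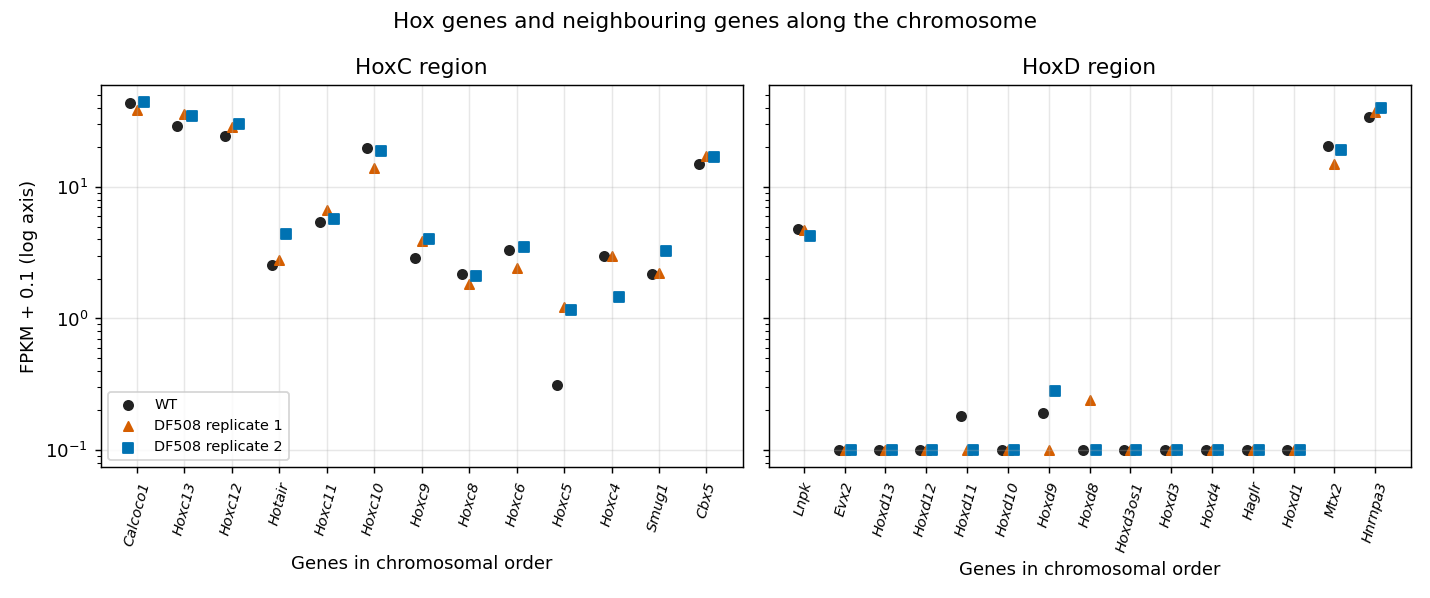
FPKM + 0.1 on a log axis for genes of the HoxC region (left) and the HoxD region (right), in their order along the chromosome, with 1 point for each library. Genes at 0 lie at 0.1. In the HoxC region every plotted gene has an FPKM of at least 0.21 in each library, whereas no plotted gene between Lnpk and Mtx2 exceeds 0.18.

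The promoters of a HoxA gene and its HoxD paralogue are shown for groups 9 and 13, picked as examples. The HoxA gene of each was detected in every library. So were Hoxa3, Hoxa10 and Hoxa11, which also have windows beside their HoxD paralogues and are not shown. Hoxd9 had at most 2 counts in a library. Hoxd13 had no row, so its level may not have been measured. The windows run from 250 bases before to 50 bases after the RefSeq start, 5′ to 3′ on the gene's strand, in build GRCm38.p6, with each CpG in capitals.
Hoxa9 (chr6:52227321-52227620, minus strand): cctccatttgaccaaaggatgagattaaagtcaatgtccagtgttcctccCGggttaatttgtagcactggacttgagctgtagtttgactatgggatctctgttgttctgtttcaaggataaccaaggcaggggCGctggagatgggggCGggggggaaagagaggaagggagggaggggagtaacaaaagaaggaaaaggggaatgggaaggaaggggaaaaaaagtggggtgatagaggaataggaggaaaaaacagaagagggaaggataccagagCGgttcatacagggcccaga
Hoxd9 (chr2:74697513-74697812, plus strand): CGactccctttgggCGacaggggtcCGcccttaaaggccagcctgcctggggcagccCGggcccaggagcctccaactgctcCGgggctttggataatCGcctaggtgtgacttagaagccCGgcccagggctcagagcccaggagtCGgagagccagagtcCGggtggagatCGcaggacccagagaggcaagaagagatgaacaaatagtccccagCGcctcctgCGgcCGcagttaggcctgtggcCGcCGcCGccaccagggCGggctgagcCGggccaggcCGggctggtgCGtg
Hoxa13 (chr6:52260831-52261130, minus strand): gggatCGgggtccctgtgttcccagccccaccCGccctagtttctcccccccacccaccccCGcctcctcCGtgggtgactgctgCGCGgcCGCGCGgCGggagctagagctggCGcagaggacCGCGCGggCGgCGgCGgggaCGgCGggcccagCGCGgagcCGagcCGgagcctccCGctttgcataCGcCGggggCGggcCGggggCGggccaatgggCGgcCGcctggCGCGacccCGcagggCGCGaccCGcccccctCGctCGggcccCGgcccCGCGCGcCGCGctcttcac
Hoxd13 (chr2:74667975-74668274, plus strand): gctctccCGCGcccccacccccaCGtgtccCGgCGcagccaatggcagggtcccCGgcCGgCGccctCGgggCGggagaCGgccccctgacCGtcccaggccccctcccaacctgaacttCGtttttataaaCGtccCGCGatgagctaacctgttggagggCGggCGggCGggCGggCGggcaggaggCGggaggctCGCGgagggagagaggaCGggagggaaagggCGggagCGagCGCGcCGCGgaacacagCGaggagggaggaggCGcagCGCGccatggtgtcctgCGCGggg
CpG-rich promoters are typical of developmental genes, and Polycomb binds many of them when they are silent. The windows of Hoxa13 and Hoxd13 held 45 and 37 CpGs, at percentiles 98.1 and 94.4 of 32851 RefSeq windows of the same length. Hoxd9 had 20 and Hoxa9 had 4, where the median of all windows was 7. Of the 39 genes 22 had a window in the table. The 10 windows of HoxD had a median of 20 CpGs (range 4 to 37) and the 10 of HoxA a median of 17.5 (range 4 to 45). HoxB had 3 windows and HoxC had 1, and Hoxb13, Hoxc13, Hoxc12, Hoxb9 and Hoxc10 had none, so HoxD was compared mostly with HoxA. The motif TTTAC, a core that group 13 proteins bind, was in 4 of the 10 HoxD windows and 4 of the 14 other Hox windows, searched on both strands, and in 31.5% of all windows. The TATA motif TATAAA was in 2 of 10 and 2 of 14, also searched on both strands, and in 13.6% of all windows.

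Between the genotypes no Hox gene passed the test. Of the 39 genes 28 passed the filter on low counts and were tested, and 0 were called at an adjusted p under 0.05 (edgeR quasi-likelihood test, Benjamini-Hochberg over 12888 genes), where 1.39% of all genes were called, 0.489% as higher and 0.9% as lower in DF508. At an unadjusted p under 0.05 there were 2 Hox genes, Hoxc5 and Hoxb5, against 11.9% of all genes. DESeq2's Wald test also called 0, but gave an adjusted p for only 2 of the 28, where it called 1.73% of all genes with one. Limma-voom called 0 of 28 Hox genes, with 0 at an unadjusted p under 0.05, and 1.47% of all genes. The fitted log2 fold change was above 0 for 14 and below 0 for 14, with a median of -0.01, beside 0.01 over all tested genes. The median was 0.01 over 5 genes of groups 1 to 3, -0.02 over 12 of groups 4 to 8 and -0.05 over 11 of groups 9 to 13. By FPKM, WT lay below both DF508 libraries in 11 of the 28 and above both in 9. Over all tested genes these shares were 43.1% and 29.6%. The spread came from the DF508 pair alone (1 residual degree of freedom), which WT was assumed to share, so an adjusted p above the threshold does not show that the levels were the same.

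**Figure D3:**
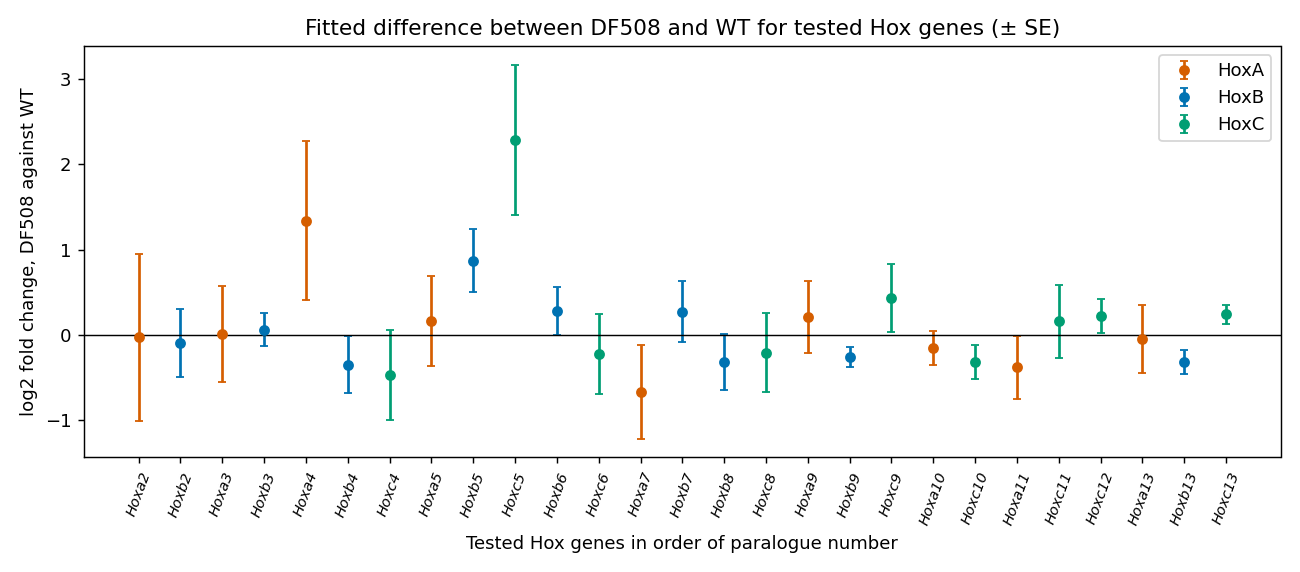
Fitted log2 fold change of DF508 against WT (points) with its standard error (bars) for 27 tested Hox genes, in order of paralogue number and coloured by cluster. Points scatter on both sides of 0, and the largest, of Hoxc5 at 2.29, rests on 3 counts in WT.

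Hoxc5, Hoxa4 and Hoxb5 were among the 4 largest fitted differences, and all 3 were toward higher levels in DF508. Hoxc5 had 3 counts in WT and 16 and 15 in the DF508 libraries, so that WT lay apart from the pair, and its log2 fold change was 2.29 ± 0.88 (SE, adjusted p = 0.333, edgeR). The exact 95% interval of its count ratio was 1.58 to 25.9, for counting error only. Hoxa4 had 4 counts in WT and 11 and 10 in DF508 (log2 fold change 1.34 ± 0.93, adjusted p = 0.648, edgeR), with a ratio interval of 0.868 to 10.3. Hoxb5, with 30 counts in WT and 67 and 45 in DF508, was the best measured of these, at 0.87 ± 0.37 (adjusted p = 0.396, edgeR) and a ratio of 1.83 with an interval of 1.21 to 2.84. Its log2 fold change was 0.55 without DF508 replicate 1 and 1.13 without replicate 2. By count, the DF508 libraries of Hoxb5 lay farther from each other than the lower of them lay from WT. The group 5 sum, chosen after its values were seen, was 5.01 FPKM in WT and 9.68 and 7.91 in DF508, where Hoxa5 had 18 counts in WT and 18 and 23 in DF508. Beyond the 4 largest, the 24 other tested genes had log2 fold changes of -0.67 to 0.43, with Hoxa7 lowest and Hoxc9 highest.

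The abundant genes, where counting error is smallest, had small fitted differences that did not pass the test. Exact 95% intervals of the DF508 to WT count ratio, for counting error only, were 1.05 to 1.34 for Hoxc13 and 0.925 to 1.48 for Hoxc12. They were 0.679 to 0.942 for Hoxb13 and 0.733 to 0.948 for Hoxb9. Of these intervals, only that of Hoxc12 included equal levels. Hoxc13 had 372 counts in WT and 456 and 444 in DF508 (log2 fold change 0.24 ± 0.11, SE, adjusted p = 0.44, edgeR), and Hoxc12 was at 0.22 ± 0.2. Hoxb13 had 241 counts in WT and 188 and 205 in DF508 (-0.32 ± 0.14, adjusted p = 0.42, edgeR). Hoxb9 had 381 counts in WT and 313 and 335 in DF508 (-0.26 ± 0.12, adjusted p = 0.42, edgeR). Hoxc10 had 199 counts in WT and 138 and 187 in DF508 (-0.32 ± 0.2, adjusted p = 0.595, edgeR). Over all tested genes the FPKM of WT lay below the DF508 pair in 43.1% and above it in 29.6%, so a place outside the pair was common. For the abundant genes named here WT also lay outside the pair, above it for Hoxb13, Hoxb9 and Hoxc10 and below it for Hoxc13 and Hoxc12. The genes of a cluster thus did not all differ one way. The FPKM summed over HoxB groups 9 to 13 was 61.6 in WT and 49.7 and 53.7 in DF508, while over HoxB groups 4 to 8 it was 23.1 in WT and 27.2 and 27.7 in DF508. Over HoxC groups 9 to 13 it was 80.8 in WT and 88.5 and 92.8 in DF508. As a whole HoxB held 44.4% of the summed Hox FPKM in WT and 41.4% and 41.6% in DF508, and HoxC held 41.3% in WT and 45.2% and 44.8% in DF508. HoxA held 14.2%, 13.3% and 13.5%. Without the Hox genes that share reads, Hoxb9 among them, HoxB held 33.6% in WT and HoxC 50.4%, which turns the order of these clusters in WT. The ratio of HoxC to HoxB counts was 0.803 in WT, with an exact 95% interval of 0.731 to 0.882, and 0.946 (0.861 to 1.04) and 0.929 (0.848 to 1.02) in the DF508 libraries. The intervals overlap, cover counting error only and come without a replicate of WT.

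**Figure D4:**
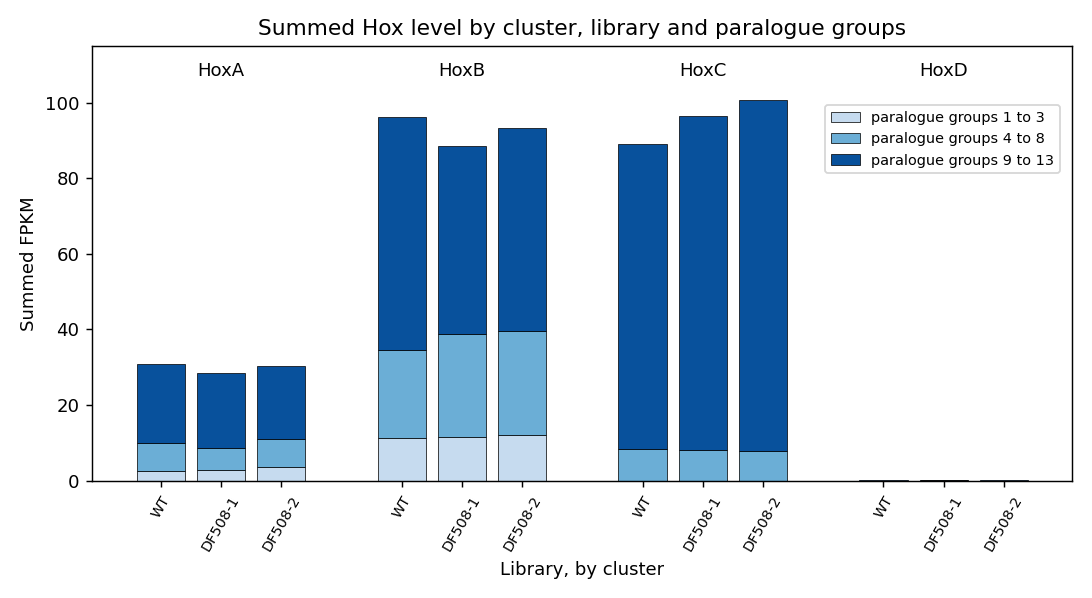
Summed FPKM (bars from 0) of the Hox genes in each cluster and library, split by paralogue groups. HoxB and HoxC each reach 88.5 to 101 FPKM and HoxA 28.5 to 30.8, groups 9 to 13 make up most of each HoxA, HoxB and HoxC bar, and HoxD stays under 0.2.

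The spread of the Hox genes over the 3 libraries was set beside that of other genes. Of the 24 genes with an FPKM of at least 1 in every library, 18 differed by less than 1.5-fold between the highest and lowest library (median 1.35-fold, largest 2.64-fold, in Hoxa7), which is 75% of them. Over all 9484 genes with such an FPKM and a mean in the same range, the share was 80.7% and the median 1.24-fold. Over 22 Hox genes with a mean of 20 to 500 counts, the median chi-square between WT and DF508 replicate 1 was 1.09, as it was over all 9396 genes in that range. It was 0.766 between WT and replicate 2, beside 1.16 over all, and 1.2 between the DF508 libraries, beside 0.828. By the median the DF508 libraries did not lie closer to each other than to WT over these Hox genes. By the mean their chi-square of 2.07 lay between those of WT against replicate 1 (3.4) and replicate 2 (1.65). Over all genes the means were 2.57 within the DF508 pair, 3.48 for WT against replicate 1 and 4.33 for WT against replicate 2, so there the pair was closest and replicate 2 the farther from WT. Over the Hox genes replicate 2, with the most myeloid transcripts, was the closer to WT. Whether this order differs between the Hox genes and the rest was not tested.

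Genes that work with or on the Hox genes were present and not called. Hox proteins bind DNA with TALE homeodomain partners, and of these Pbx2 had FPKM of 15, 15 and 16 in WT and DF508 replicates 1 and 2. Meis3 had 12.4, 12.5 and 13.1. None of 8 tested cofactors passed (median log2 fold change 0.01). Polycomb complexes keep Hox genes silent outside their domain, and all 20 subunits listed reached an FPKM of 1 in at least 1 library, led by Phc2, Cbx6 and Bmi1 at 21.2 to 27.5, with 0 of 20 called and a median of 0.05. The methyltransferase Ezh2 had 60 counts in WT and 104 and 106 in DF508 (log2 fold change 0.78, adjusted p = 0.19, edgeR), named after its values were seen. Some genes of the position lists lay closer to the threshold, and are also named after their values were seen. Among them were Meox1 (0.96, adjusted p = 0.0629, edgeR), Dlx3 (2.71, adjusted p = 0.0824, edgeR) and Foxc1 (-0.77, adjusted p = 0.102, edgeR). Of 17 trithorax-type activators and cluster-border factors, led by Rad21 (FPKM 45.8 to 54.7), Psip1 (23.7 to 30.3) and Men1 (21.1 to 25.7), 0 were called (median 0.15). Of 14 Hox cluster non-coding RNAs 4 were tested, with Gm53, which lies between Hoxb13 and Hoxb9, at FPKM of 16.7, 16.8 and 15.8, followed by Mira at 2.71 to 5.37 and Hoxa11os, and 0 were called. Of 19 tested cluster neighbours, led by Hnrnpa1 (69.1 to 103), Nfe2l2 (79.7 to 84.7) and Nfe2l1 (49.8 to 56.9), 0 were called (median -0.12).

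Other genes of body position stood beside the Hox pattern as follows. Of 18 genes of the tail bud and the caudal embryo, 4 had a row. Wnt5a, a ligand of axis elongation, had FPKM of 15, 17.9 and 14.9 in WT and DF508 replicates 1 and 2, and Gdf11, the ligand that sets the trunk-to-tail transition, had 3.77, 4.03 and 3.92. Tbx6 was at 1.22 or less. The caudal genes Cdx1, Cdx2 and Cdx4, which activate Hox clusters in the embryo, had no row. Among 13 tested limb genes, which include general mesenchymal factors, the highest were Prrx2, Prrx1 and Twist1, at 60.7 to 86 in every library. The hindlimb gene Tbx4 had 7.12, 9.78 and 7.77, whereas Tbx5 of the forelimb and Pitx1 of the hindlimb were at 0.28 or less; these 3 were chosen after their values were seen. Of 12 tested head and neural crest genes Six2 (FPKM 15.9 to 22.3) and Dlx2 (3.21 to 3.83) were among the 3 highest, and Otx2, Alx1 and Barx1 had no row. Trunk genes were led by Nr2f2 (11 to 13.4), Osr1 (9.29 to 11) and Foxc1 (5.38 to 9.74). Over all 10 lists of related genes, 100 were tested, 0 were called by edgeR or limma-voom and 0 of the 31 with an adjusted p by DESeq2, and 12 had an unadjusted p under 0.05 in edgeR, a share near the 11.9% of all genes.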

How the data were processed

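The tables were made with Bowtie and RSEM on mm9, per the submitters' processing notes; their versions, the annotation and strand use are not stated there. Messenger RNA was enriched on oligo(dT) beads, per the labels' protocols. Per the file headers each library's table holds expected counts (unnormalized estimates by RSEM, used as deposited), the FPKM as deposited (scaled to length and depth by the authors) and the gene length. A gene missing from a table was set to 0. A gene whose estimate was not whole within 0.005 in some library was taken to share reads. Of 16621 IDs 16579 matched a symbol in a RefSeq table of GRCm38.p6, used for names and neighbours.

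Expected counts were rounded and fitted with edgeR 4.0.16 (filterByExpr, TMM, quasi-likelihood test, genotype as the sole term, all 3 libraries) in R 4.3.3, and adjusted by Benjamini-Hochberg with a threshold of 0.05. On simulated counts with known changes the test gave the right direction for nearly all changed genes, but its recovery at the threshold ran from none to most between simulations, with gene-wise dispersions and also with a common dispersion, and 1 simulation made many false calls. The gene-wise simulation was added after the common one, as first run, had recovered almost none of the changed genes. A standard error is the log2 fold change over the square root of F. Alternatives used DESeq2 1.42.0 and limma 3.58.1. A count of 0 allows 3 counts, which as CPM is 0.579 in WT and 0.568 and 0.566 in the DF508 libraries. Intervals are exact at 95% and, without molecular identifiers, cover counting error only. Named are the Hox genes that reach an FPKM of 1 in a library, the 4 largest fitted changes, Cftr and the 3 highest of each related list, with the cell marker lists given as sums; a few of these are not reported here, and others are said to be chosen after their values were seen. The Hox genes and lists were chosen with earlier results of these data known.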

Additional observations from a re-analysis of the deposited data

How the results depend on the processing

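No Hox gene and no related gene was called under any of the 7 alternative fits (limma-voom, limma on log2(FPKM + 1) or log2(FPKM + 0.1), the Wald test of DESeq2, and edgeR with DESeq2 size factors, with genes of mean count 50 or more, or unfiltered). Over all genes the 179 calls became 63 with DESeq2's Wald test and 0 with no filter on low counts or with either FPKM fit, where 1123, 1145 and 1159 genes had an unadjusted p under 0.05. The median Hox log2 fold change stayed between -0.04 and 0.04, and was 0.04 without DF508 replicate 1 and -0.04 without DF508 replicate 2. Counts of calls were not run with a DF508 library left out, since no residual degrees of freedom remain, and leaving out WT leaves no comparison. No paired analysis was possible because there is 1 WT library for 2 DF508 libraries and the labels name no pairs.

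By expected counts in place of FPKM, groups 9 to 13 held 73.7% in WT and 71.9% in DF508. HoxB held 47% and 44%, HoxC 37.7% and 41.2%, and HoxA 14.7% in DF508. Without Hox genes that share reads, which removes Hoxb9, groups 9 to 13 held 79.2% in WT and 77% in DF508, HoxA 15.9% and 14.8%, HoxB 33.6% and 31.5%, HoxC 50.4% and 53.5%, and HoxD 0.0884% in DF508. Depth limits the genes under about 20 counts, among them Hoxa2, Hoxa4 and Hoxc5.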
